A study of Mus musculus with 248 samples.

Results

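The genes described here encode spliceosome components, splicing regulators and RNA helicases of mouse hematopoietic stem cells. They were taken by symbol: every gene that starts with Srsf, Sf3a, Sf3b, Hnrnp, Prpf or Snrp, or with Ddx or Dhx followed by a digit, apart from Ddx60, Ddx3x and Ddx3y. The genes had to appear in at least 1 of 3 gene lists that the authors deposited, and 72 of the 7272 genes in those lists did. The first list holds highly variable genes and contained 38 of the 72. Being in a list was part of the choice, so this count is set against RefSeq: 37 of the 38 match RefSeq, and they are 31.9% of the RefSeq protein-coding genes that fit the symbols, against 34.7% for the whole list over the 16203 genes tested in the other lists. Whether all genes of the list were among the 16203 is not given. The second compares cells whose mitochondrial membrane potential (MMP) was low with cells where it was high and contained 28. The third compares each of 5 clusters of cells, named A to E, with all other cells and contained 30. Dhx16 and Hnrnpf stood in all 3 lists, and 8 genes stood in both the MMP list and the cluster list.

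Introns are cut out of pre-mRNA by the spliceosome, which is built from small nuclear ribonucleoproteins (snRNPs) whose RNAs carry a ring of Sm proteins. The Snrp genes encode Sm proteins and further snRNP proteins. SF3A and SF3B are parts of the U2 snRNP that recognise the branch site, and Prpf genes encode further subunits and assembly factors. SR proteins (Srsf) and hnRNP proteins (Hnrnp) bind exons and introns and steer which splice sites are used. DEAD box (Ddx) and DEAH box (Dhx) proteins use ATP to remodel RNA and RNA-protein complexes in splicing, ribosome assembly, mRNA decay, export and the sensing of foreign RNA, so the helicase classes reach well beyond splicing. Mutations of splicing factors are frequent in myeloid neoplasia, and both SF3B1 and DDX41 are known disease genes in humans.

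The cells came from C57Bl6 mice and were sorted as Lin-Sca1+cKit+CD150+CD48-, a surface profile of long-term stem cells, into an MMP-low group of 122 libraries and an MMP-high group of 126 libraries. This potential is held across the inner membrane of mitochondria, and the series set quiescent MMP-low cells against primed MMP-high cells. The labels give no age or treatment of the mice. They also name no animal and no sort, so each group is 1 sample, differences between groups have no replicate check, and no test was added to the authors' own.

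The promoters of 4 genes that stood higher in MMP-high cells are shown first, because 3 of them encode members of the same Sm ring and the fourth, Sf3a1, was called in both comparisons. Each is the 250 bases before the RefSeq start in GRCm38.p6, the mm10 assembly, written 5′ to 3′ on the gene's own strand. Sf3a1 lies at chr11:4160104-4160353 on the plus strand, Snrpe at chr1:133610281-133610530 on the minus strand, Snrpd3 at chr10:75517792-75518041 on the plus strand and Snrpg at chr6:86371290-86371539 on the plus strand. Capitals mark matches on either strand to any of 12 short motifs that were searched.
Sf3a1: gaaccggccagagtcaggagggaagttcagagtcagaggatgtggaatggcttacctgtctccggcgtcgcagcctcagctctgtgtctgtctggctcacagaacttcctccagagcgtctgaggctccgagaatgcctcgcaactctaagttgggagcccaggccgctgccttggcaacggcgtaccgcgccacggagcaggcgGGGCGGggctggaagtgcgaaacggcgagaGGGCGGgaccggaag
Snrpe: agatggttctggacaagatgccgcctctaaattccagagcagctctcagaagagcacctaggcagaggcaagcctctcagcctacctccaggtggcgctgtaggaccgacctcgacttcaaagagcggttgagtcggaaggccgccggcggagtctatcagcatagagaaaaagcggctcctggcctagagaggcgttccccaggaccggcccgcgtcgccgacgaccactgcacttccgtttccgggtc
Snrpd3: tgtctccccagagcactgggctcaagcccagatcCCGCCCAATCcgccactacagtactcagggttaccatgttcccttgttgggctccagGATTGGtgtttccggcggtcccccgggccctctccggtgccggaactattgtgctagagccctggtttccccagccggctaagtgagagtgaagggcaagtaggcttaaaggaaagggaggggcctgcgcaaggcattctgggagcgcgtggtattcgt
Snrpg: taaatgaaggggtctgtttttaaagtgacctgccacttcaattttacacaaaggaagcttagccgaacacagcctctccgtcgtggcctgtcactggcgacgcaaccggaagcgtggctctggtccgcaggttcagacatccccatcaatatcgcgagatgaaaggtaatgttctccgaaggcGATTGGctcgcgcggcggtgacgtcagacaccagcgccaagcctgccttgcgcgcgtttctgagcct

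The 4 windows had no motif in common. Sf3a1 held the GC box GGGCGG at 45 and at 15 bases before its start. Snrpd3 held a GC box at 216 and CCAAT boxes at 212 and 158 bases before its start, and the GC box overlaps the first of these. Snrpg held a CCAAT box at 66 bases before its start, and Snrpe held none of the 12 motifs. RefSeq windows were found for 62 of the 72 genes. A GC box lay in 64.5% of these 62, in 66% of the windows of all 708 matched genes listed toward MMP-high, and in 35.4% of the 27025 windows of all genes. For CCAAT the shares were 45.2%, 41.7% and 37.5% in the same order, for its longer form GATTGG 32.3%, 24.3% and 16.6%, for the E box CACGTG 11.3%, 11.2% and 6.86%, and for the ETS motif CCGGAAGT 11.3%, 8.05% and 3.23%. TATAAA lay in 11.3% of the members' windows, 6.5% of those of the MMP-high genes and 14.3% of all windows. The 62 include genes not listed toward MMP-high. In the 20 of them that were, the shares were 70% for the GC box, 40% for CCAAT and 35% for GATTGG. They were 15% each for the E box, the ETS motif and TATAAA, and with 20 windows each share rests on few genes. The remaining motifs were the NRF1 motif, the YY1 motif, its short form ATGGCGGC, the E2F motifs TTTCGCGC and TTTGGCGC and the pyrimidine stretch CTCTTTCC, and each lay in at most 2 of the 62 windows. GATTGG holds the reverse complement of CCAAT, and ATGGCGGC lies inside the YY1 motif, so those counts overlap. The motifs were chosen with the lists known, and a match describes letters only.

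Between the MMP groups the listed genes were mostly higher in MMP-high cells: 3 were listed toward MMP-low and 25 toward MMP-high by the authors' deposited table. By the authors' MAST model, 15 of the 25 had an adjusted p under 0.05 and none of the 3 did. Every gene in the authors' deposited table has an unadjusted p of at most 0.00999, so an unadjusted p under 0.05 for all 3 follows from being listed. The authors' deposited table lists 5.86% of 16203 tested genes toward MMP-low and 5.67% toward MMP-high. RefSeq holds 12 Snrp, 9 Sf3a and Sf3b, 13 Prpf, 11 Srsf, 21 Hnrnp, 34 Ddx and 16 Dhx protein-coding genes that fit the symbol rule. Of all these the 3 are 2.59% and the 25 are 21.6%. Under the adjusted p the authors' deposited table called 3.33% of tested genes toward MMP-low and 3.69% toward MMP-high, against 0% and 12.9% of those RefSeq genes. Whether each of them was among the genes the authors tested is not given. The sizes were modest. The 25 genes had a median log fold of 0.38 (range 0.28 to 0.49) by the authors' deposited table, and all 919 genes listed toward MMP-high had a median of 0.33. The base of these logs is not stated, and a gene was listed only from a log fold of 0.25, so a gene that is not listed has no value here. Below, log folds are written MMP-low over MMP-high, and a negative value means higher in MMP-high.

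**Figure D1:**
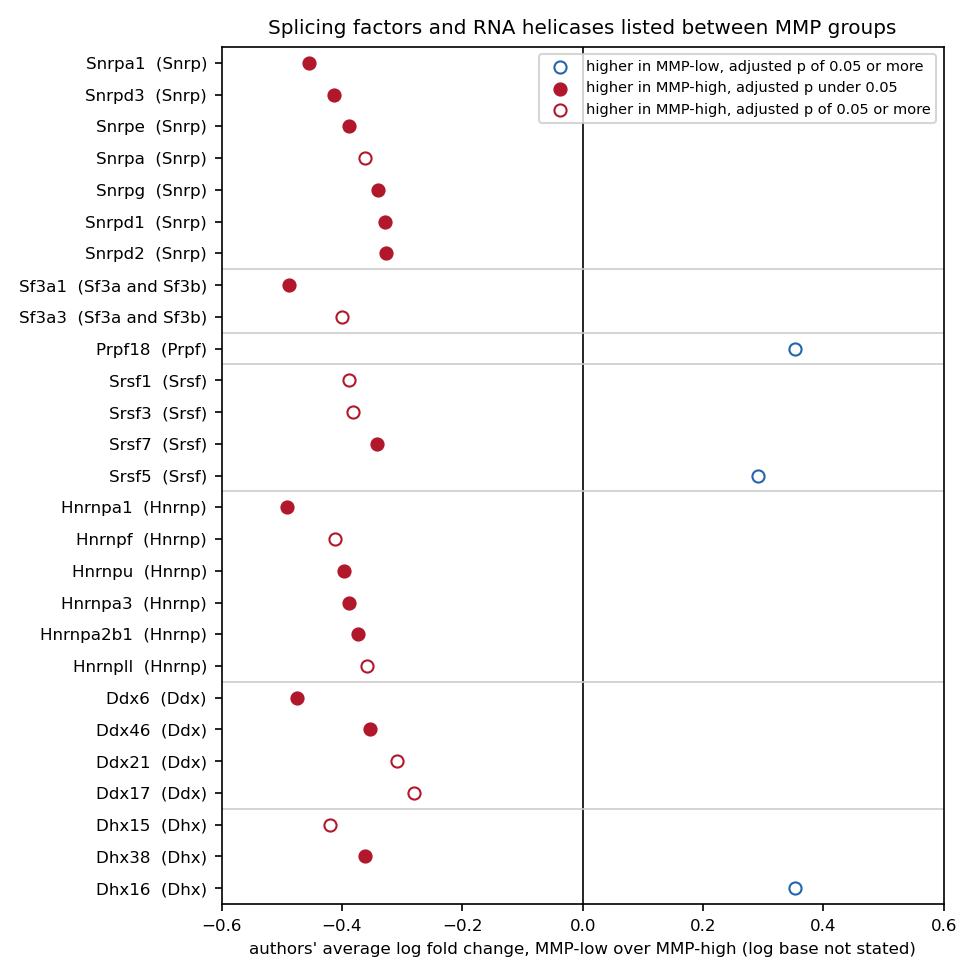
Average log fold change, MMP-low over MMP-high (horizontal axis, log base not stated), of 27 of the 28 listed genes, grouped by class. Filled points have an adjusted p under 0.05; 3 genes lie right of 0 (higher in MMP-low) and 24 lie left of it (higher in MMP-high), and all filled points lie on the left.

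The snRNP proteins were the class with the largest listed share: 7 of its 12 RefSeq genes were listed toward MMP-high and none toward MMP-low, and 6 of the 7 had an adjusted p under 0.05. Snrpd1, Snrpd2, Snrpd3, Snrpe and Snrpg are Sm ring proteins, which every major spliceosomal snRNP except U6 carries. Snrpa1 is a protein of the U2 snRNP and had the largest fold of the class, -0.45, with detection in 87.6% of MMP-low against 96.6% of MMP-high cells and an adjusted p of 6.13e-05 by the authors' deposited table. Snrpd3 was detected in 92.4% of MMP-low against 98.3% of MMP-high cells, with a log fold of -0.41 and an adjusted p of 3.41e-05 by the authors' deposited table. The authors' deposited table gave Snrpe, whose promoter is shown above, detection in 98.1% of MMP-low against 100% of MMP-high cells, a log fold of -0.39 and an adjusted p of 3.73e-05. By these fractions 92.4% or more of the cells of either group held these Sm transcripts, at a higher average level in MMP-high cells. Whether values were filled in before detection was counted is not given. Snrpg, with 99% and 99.2% of MMP-low and MMP-high cells, had the smallest adjusted p of the class, 1.77e-06, at a log fold of -0.34 by the authors' deposited table. Snrpd2 had a log fold of -0.33 (adjusted p 4.68e-05), per the authors' deposited table. Snrpd1 lay just inside the threshold by the authors' deposited table, at a log fold of -0.33 and an adjusted p of 0.0337. Snrpa, a protein of the U1 snRNP, did not pass, with a log fold of -0.36 and an adjusted p of 0.306 by the authors' deposited table. The last gene of the class, Snrpn, an imprinted relative of Snrpb, was only in the highly variable list.

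Of the 9 SF3A and SF3B genes, Sf3a1 and Sf3a3 were listed toward MMP-high. Sf3a1 encodes the large subunit of SF3A and was detected in 38.1% of MMP-low cells and 96.6% of MMP-high cells, with a log fold of -0.49 and an adjusted p of 2.59e-13, by the authors' deposited table. Here the groups differed widely in the share of cells with the transcript detected. Its partner Sf3a3 was detected in 96.2% of MMP-low against 100% of MMP-high cells and lay just outside the threshold, with a log fold of -0.40 and an adjusted p of 0.0636 by the authors' deposited table.

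The genes listed toward MMP-low came from the Prpf, Srsf and Dhx classes. Prpf18, a factor of the second catalytic step and 1 of 13 Prpf genes, was listed toward MMP-low with a log fold of 0.35, detection in 100% of MMP-low against 99.2% of MMP-high cells and an adjusted p of 0.185 by the authors' deposited table. Among 11 Srsf genes, 1 was listed toward MMP-low and 3 toward MMP-high. Srsf7, an SR protein that also serves mRNA export, was the 1 with an adjusted p under 0.05, with a log fold of -0.34, 100% detection in either group and an adjusted p of 0.0197 by the authors' deposited table. Srsf3, its close relative, had -0.38 and an adjusted p of 0.083, and the SR protein Srsf1 had -0.39 and an adjusted p of 1, both from the authors' deposited table. Srsf1 was also less often detected, in 78.1% of MMP-low against 92.4% of MMP-high cells, per the authors' deposited table. Srsf5, another SR protein, was listed the other way, at 0.29 with 100% detection in either group and an adjusted p of 0.253 by the authors' deposited table.

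All 6 listed hnRNP genes, of 21 in RefSeq, were listed toward MMP-high, and 4 had an adjusted p under 0.05. Hnrnpa1, an abundant splicing repressor, had the largest log fold of all 28 genes, -0.49, with 100% detection in either group and an adjusted p of 0.00157 by the authors' deposited table. Hnrnpu, a nuclear scaffold protein that binds RNA and chromatin, had -0.40 with an adjusted p of 3.04e-05 by the authors' deposited table. The relatives of Hnrnpa1 were higher in MMP-high cells too. Hnrnpa3 had -0.39 and an adjusted p of 0.00213, and Hnrnpa2b1 had -0.37 and an adjusted p of 0.025, both by the authors' deposited table. Hnrnpu and Hnrnpa2b1 were detected in every cell of either group, and Hnrnpa3 in 99% of MMP-low against 100% of MMP-high cells, per the authors' deposited table. Hnrnpf, which binds runs of G, had -0.41 with an adjusted p of 1, again at 100% detection in either group by the authors' deposited table. Hnrnpll, known for the splicing of Ptprc (CD45) in lymphocytes, was the patchiest of the class, with 51.4% of MMP-low against 79% of MMP-high cells, a log fold of -0.36 and an adjusted p of 0.41 by the authors' deposited table.

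Among the helicases, 4 of 34 Ddx genes (11.8%) and 2 of 16 Dhx genes (12.5%) were listed toward MMP-high, and 1 Dhx gene toward MMP-low. The 3 that passed were higher in MMP-high cells. Ddx6, a helicase of mRNA decay and translational repression, had a log fold of -0.47, detection in 71.4% of MMP-low against 85.7% of MMP-high cells and an adjusted p of 0.00595 by the authors' deposited table. Ddx46, the homolog of yeast Prp5 that acts on the U2 snRNP, was detected in 67.6% of MMP-low against 99.2% of MMP-high cells, with -0.35 and an adjusted p of 2.41e-06, per the authors' deposited table. Dhx38, the homolog of yeast Prp16 that remodels the spliceosome between its catalytic steps, showed the widest gap in detection, 11.4% of MMP-low against 74.8% of MMP-high cells, with a log fold of -0.36 and an adjusted p of 1.38e-13 by the authors' deposited table. Hnrnpa1, with the largest log fold, had no gap in detection at all. RefSeq places Dhx38 at chr8:109547999-109565861, Ddx46 at chr13:55634975-55681267 and Hnrnpa1 at chr15:103239943-103246698 in GRCm38.p6.

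The other listed helicases had an adjusted p of 1. They were Dhx15, the homolog of yeast Prp43 that takes spliceosomes apart, at -0.42, and the nucleolar helicase Ddx21 at -0.31, by the authors' deposited table. Ddx17, a helicase of splicing and transcription, stood at -0.28 by the authors' deposited table. Dhx16, the homolog of yeast Prp2 that activates the spliceosome, was listed toward MMP-low, at 0.35 with detection in 84.8% of MMP-low against 85.7% of MMP-high cells by the authors' deposited table.

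**Figure D2:**
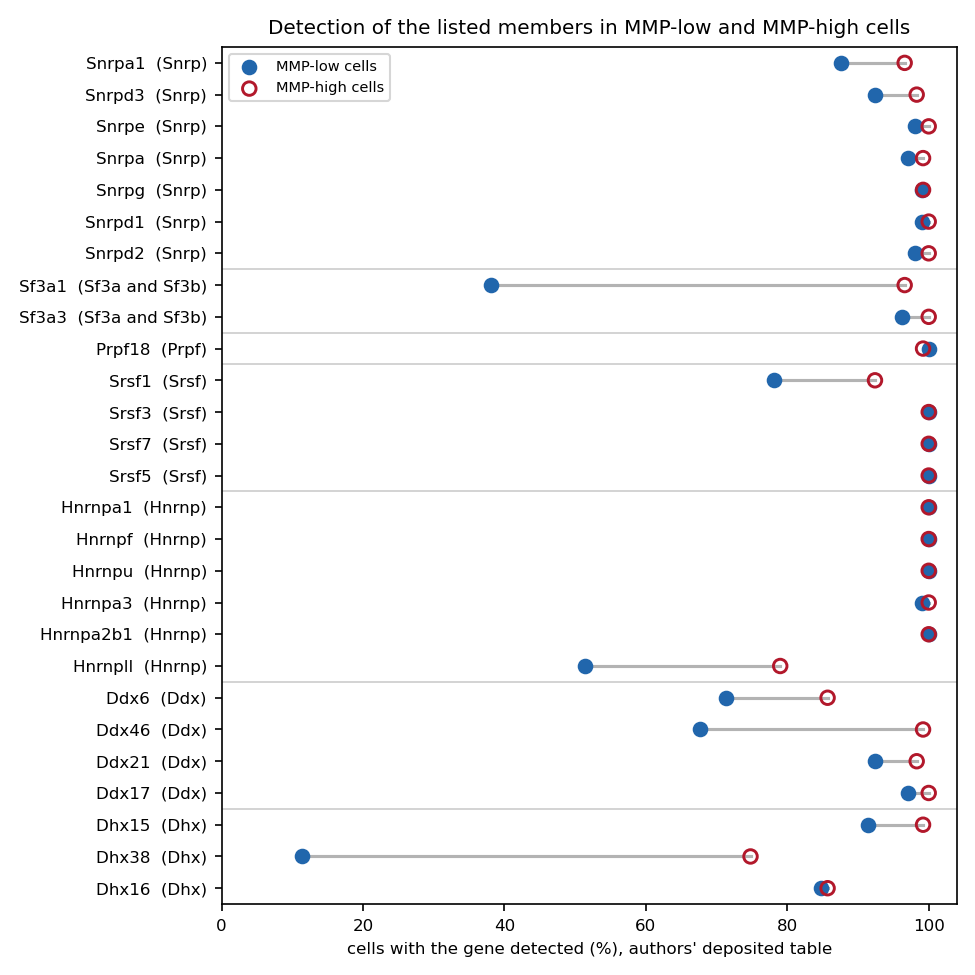
Percent of cells in which each of 27 of the 28 listed genes was detected, in MMP-low cells (filled) and MMP-high cells (open), by class. Sf3a1, Dhx38, Ddx46 and Hnrnpll have gaps of 20 points or more, and 14 of the 24 plotted genes listed toward MMP-high are at 95% or more in both groups.

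By the deposited fractions, most of these genes listed toward MMP-high were detected in nearly all cells of either group. Their detection is set here beside that of every gene listed toward MMP-high, as a description. The 25 had a median detection of 97.1% in MMP-low and 100% in MMP-high cells by the authors' deposited table, whereas all 919 genes listed toward MMP-high had 75.2% and 96.6%. Detection was 95% or more in each group for 15 of the 25 genes (60%) and for 31% of the 919. In the authors' quality values, MMP-low libraries had a median of only 2316.5 detected genes, while 16203 genes were tested. How the deposited fractions relate to these counts, and whether values were filled in first, is not given. A gap of 20 percentage points or more was seen for 4 of the 25 (16%) and 48.5% of the 919. The median difference in detection, MMP-low minus MMP-high, was -2.1 percentage points for the 25 and -18.5 for the 919, by the authors' deposited table. The highly variable list held 2 of the 25 (8%) and 33.6% of the 919. A high share of cells with a transcript leaves little room for a gap.

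Libraries of the groups also differed in how many genes were detected, though not in every part of the set. The authors' deposited quality table gave a median of 2316.5 detected genes in MMP-low and 3795.5 in MMP-high libraries, and 508337.5 against 568088.5 mapped reads. Among libraries numbered up to 85 in their titles the medians were 2500 genes in 85 MMP-low and 4080 in 85 MMP-high libraries, and above that number the order turned, with 2083 genes in 37 MMP-low and 1905 in 41 MMP-high libraries. Median mapped reads were 472174 in MMP-low against 1035705 in MMP-high libraries up to that number, and 564476 against 454512 above it. The median profiling efficiency was 24.5% in MMP-low against 58.5% in MMP-high libraries up to that number, and 14.6% against 13.7% above it. The median intronic rate was 37.5% in MMP-low against 21.1% in MMP-high libraries up to it, and 46.1% against 45.5% above it. Whether the numbers follow a chip or lane is not stated. Which libraries stand behind the authors' folds is not given, and the part of library quality in the folds was not tested. Of 12 stem cell markers, 6 were listed toward MMP-low and 1 toward MMP-high, with Procr and Mecom among the 6. Of 15 granulocyte and monocyte markers, 10 were listed toward MMP-low and 1 toward MMP-high, and of 12 lymphoid markers, 6 and 0. The markers Mmp8, Ighm, Igkc, Igll1 and Cd79a were found in 61 to 70.5% of MMP-low cells and at 0% in MMP-high cells by the authors' deposited table. Detection of the listed granulocyte and monocyte markers ran from 70.5 to 100% of MMP-low and from 0 to 100% of MMP-high cells, and that of lymphoid markers from 61 to 97.1% and from 0 to 96.6%, by the authors' deposited table. Of 9 erythroid markers 3 and of 5 multipotent progenitor markers 2 were listed toward MMP-low, none of either toward MMP-high. The part of these markers in the folds of splicing genes was not tested.

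The wider splicing machinery, taken from 5 lists of 216 genes outside these symbols, was also listed mostly toward MMP-high. The lists held 7 genes toward MMP-low (3.24%) and 35 toward MMP-high (16.2%), and 2 of the 7 and 16 of the 35 passed the adjusted p (0.926% and 7.41% of the 216). Among 43 further snRNP and Lsm genes, 9 were listed toward MMP-high and none toward MMP-low, and 7 passed the adjusted p. Gemin2, part of the SMN complex that loads the Sm ring, was detected in 19% of MMP-low against 93.3% of MMP-high cells, with a log fold of -0.57 and an adjusted p of 1.70e-20 by the authors' deposited table. Sart3, which recycles the U4 and U6 snRNPs, was detected in 5.7% of MMP-low against 72.3% of MMP-high cells, with an adjusted p of 7.45e-17, per the authors' deposited table. For these 2 factors of assembly and recycling the groups thus differed in the share of cells with a transcript.

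Among 36 further spliceosome genes, 1 was listed toward MMP-low and 6 toward MMP-high. Tfip11, a factor of spliceosome disassembly that works with Dhx15, went the other way, with detection in 71.4% of MMP-low against 30.3% of MMP-high cells and an adjusted p of 5.21e-09 by the authors' deposited table. Of 70 further regulators, 3 were listed toward MMP-low and 9 toward MMP-high, and Tardbp (-0.46, adjusted p 0.00118), Ewsr1 (-0.45, adjusted p 0.04) and Rbm6 passed by the authors' deposited table. Of 52 genes of the exon junction, cap, 3′ end and export, 3 and 8 were listed. Magoh, a core protein of the exon junction complex, had -0.47 with an adjusted p of 3.77e-09, and Cstf1, a cleavage factor of the 3′ end, had 0.81 toward MMP-low with an adjusted p of 0.0027, by the authors' deposited table. Thoc6, of the THO export complex, was detected in 24.8% of MMP-low against 89.9% of MMP-high cells, and Ncbp3 in 17.1% and 78.2%, per the authors' deposited table. Of 15 helicases outside the symbols, Eif4a1, Helz and Supv3l1 were listed toward MMP-high, and Helz (40% of MMP-low against 90.8% of MMP-high cells) and Supv3l1 (28.6% and 83.2%) passed by the authors' deposited table.

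The authors' own enrichment lists for MMP-high place the same genes in the spliceosome. The authors' deposited table gives 44 of the 233 genes of mRNA splicing via spliceosome (adjusted p 1.83e-13), and 21 of the 44 are genes described here. For the catalytic step 2 spliceosome the authors' deposited table gives 27 of 97 (adjusted p 3.03e-12, 15 described here), and for the U1 snRNP 9 of 20 (adjusted p 3.16e-06, 7 described here). The methylosome, which methylates Sm proteins, had 7 of 12 by the authors' deposited table (adjusted p 7.73e-06), and 5 of these are the Sm genes Snrpd1, Snrpd2, Snrpd3, Snrpe and Snrpg. These terms share genes and come from the same folds, so they are not separate evidence. Snrpe and Snrpd3 also stand in the authors' deposited table of 55 genes up in MMP High and aHSC, and 0 of the 99 genes up in MMP Low and dHSC are genes described here. The labels used here do not expand these 2 abbreviations. Of all genes listed between the MMP groups, 25 of 919 toward MMP-high and 3 of 949 toward MMP-low are genes described here. Lists of 55 and 99 genes would thus hold few of them, and these counts are not read as a result. By the authors' deposited table of pathway directions, mRNA processing is lower in MMP low than in MMP high, as are all 8 pathways it gives.

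Among the clusters no Snrp gene was listed, of 12 in RefSeq. Over all tested genes 17.8% were listed in any cluster. At that share few of 12 genes would be listed, so the absence says little about the class. Of the genes described here, those that passed were Dhx16 in cluster A, Hnrnpul1 and Hnrnpul2 in C, Sf3a1 and Dhx58 in D and Ddx41 in E. How many MMP-low and MMP-high cells each cluster holds is not stated. Ighm and Mmp8 were detected in 0% of MMP-high cells and in 100% of the cells of A and of B, by the authors' deposited tables. If the same cells and values stand behind both comparisons, A and B hold MMP-low cells only. For C, D and E the mix is not given. The authors' deposited table listed 5 of these genes in cluster A (background 5.27% of 16203 tested genes), 4 in B (4.16%), 9 in C (5.12%), 8 in D (3.23%) and 11 in E (2.80%). As shares of the RefSeq genes that fit the rule these are 4.31%, 3.45%, 7.76%, 6.90% and 9.48%, so A and B lie near or under the background and C, D and E above it. An adjusted p under 0.05 was reached by 1, 0, 2, 2 and 1 genes in A to E, where the authors' deposited table called 4.05%, 1.64%, 3.07%, 1.86% and 1.12% of tested genes. These are 0.862%, 0%, 1.72%, 1.72% and 0.862% of the same RefSeq genes, under the background in every cluster. Cluster sizes are not stated and bear on which genes pass, so the counts are not compared between clusters. None of the 4 genes of B passed, and their unadjusted p under 0.05 follows from being listed, since every entry of the authors' deposited table has at most 0.00997. Each cluster is set against all other cells, so the cluster comparisons share cells with each other and with the MMP comparison.

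**Figure D3:**
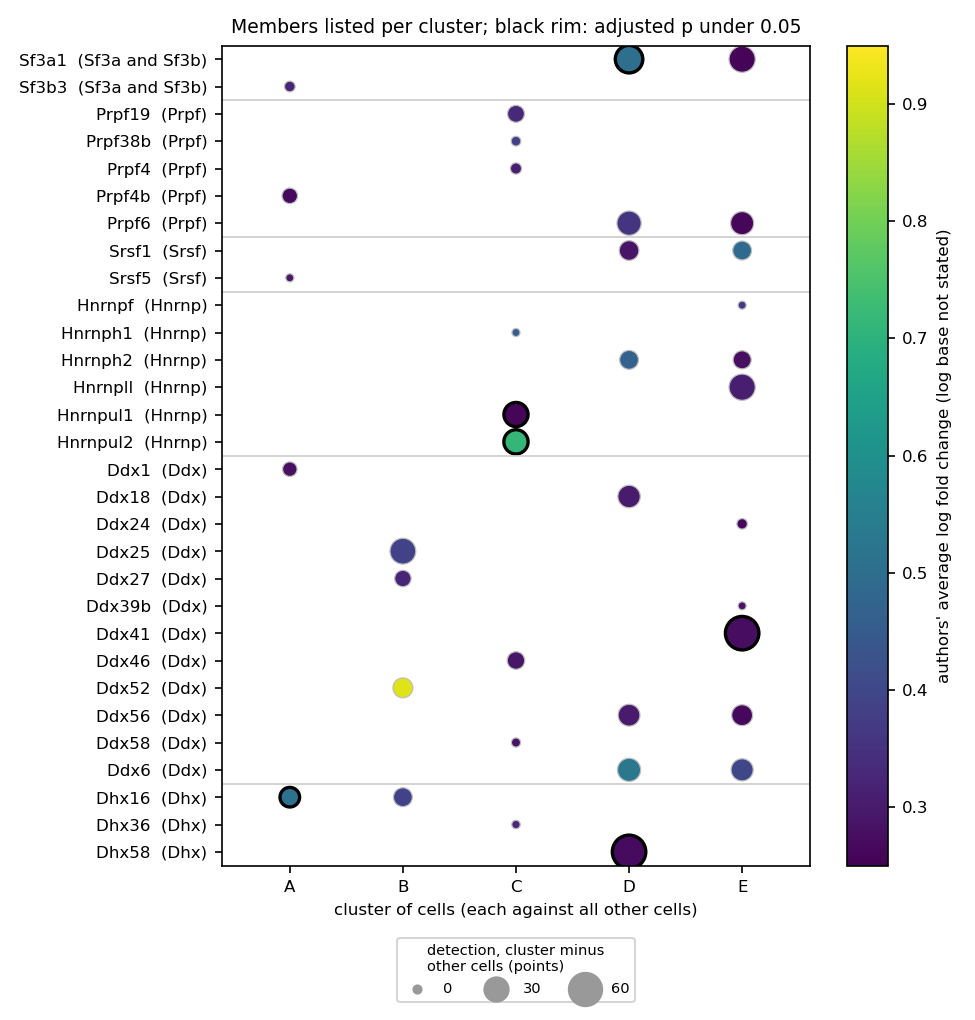
Genes listed for clusters A to E against all other cells, by class. Colour is the average log fold change, and size the detection in the cluster minus that in the other cells. A black rim marks the 6 entries with an adjusted p under 0.05. No Snrp gene has an entry, where 17.8% of all tested genes have an entry in any cluster. D and E hold 6 genes in common, and their overlap over all genes was not counted.

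Cluster A was led by Dhx16, the Prp2 homolog, found in 100% of the cluster's cells and 81.6% of the other cells, with a log fold of 0.51 and an adjusted p of 1.42e-10 by the authors' deposited table. The gene was also listed in cluster B, at 0.39 with 100% and 83.2% of cells and an adjusted p of 1 by the authors' deposited table. Stem cell markers were listed with it in A (5 of 12) and 1 in B. The other 4 genes of cluster A, none of which passed, were Sf3b3, a scaffold of SF3B, at 0.32, Srsf5 at 0.29, Ddx1, a subunit of the tRNA ligase complex, at 0.28, and Prpf4b, a splicing kinase, at 0.27, per the authors' deposited table. Between the MMP groups Srsf5 and Dhx16 were listed toward MMP-low, at the values given above.

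In cluster B the leading gene was Ddx52, a helicase of small ribosomal subunit assembly, with the largest cluster fold of all the genes described, 0.92, and detection in 100% of its cells and 81.1% of the others, but an adjusted p of 1 by the authors' deposited table. Ddx25, known as a helicase of male germ cells, had 0.39 with 64.3% of the cluster's cells and 29.6% of the others, and Ddx27, of ribosome assembly, had 0.32, each with an adjusted p of 1 by the authors' deposited table. Granulocyte and monocyte markers were listed in B (7 of 15) and A (5 of 15), and lymphoid markers in B (4 of 12) and A (1 of 12). Of the erythroid markers 3 were listed in A and 3 in B, and of the multipotent progenitor markers 2 in B. The part of these markers in the values of A and B was not tested.

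Cluster C was led by the U-like hnRNP proteins, which bind RNA and take part in the response to DNA breaks. Hnrnpul2 had a log fold of 0.71, with 100% of the cluster's cells and 69.9% of the others and an adjusted p of 4.05e-15, by the authors' deposited table. Hnrnpul1 was found in 97.1% of the cluster's cells and 67.3% of the others, at 0.26 with an adjusted p of 2.04e-06 by the authors' deposited table. Both were thus found in nearly all cells of C. Neither gene was listed between the MMP groups. Of the granulocyte and monocyte markers 2 were listed in C and both passed: Elane, found in 82.4% of the cells of C and 0% of the others, and Chil3, in 100% and 46.8%, per the authors' deposited table. Their part in the values of C was not tested. The remaining 7 genes of C did not pass. They were Hnrnph1 (0.45), which like Hnrnpf binds runs of G, Prpf38b (0.38), the ubiquitin ligase Prpf19 (0.33), Prpf4 of the U4/U6 snRNP (0.31) and 3 helicases, by the authors' deposited table. The helicases were Dhx36, which unwinds G-quadruplexes, at 0.33, Ddx46 at 0.29 and Ddx58, the RNA sensor RIG-I, at 0.29, per the authors' deposited table.

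Clusters D and E listed 6 genes in common: Sf3a1, Srsf1, Ddx6, Ddx56, Prpf6 and Hnrnph2. Over all genes D listed 524 and E 454, and how many of these are shared was not counted. The overlap is thus not read as a trait of the genes described here. Sf3a1 was found in 100% of the cells of D and 60.1% of the others, with a log fold of 0.50 and an adjusted p of 0.000751, by the authors' deposited table. In E it had 100% and 64.1% of cells, 0.26 and an adjusted p of 0.275 by the authors' deposited table. The order of D and E differed between genes. Ddx6 had 0.53 in D and 0.40 in E, and Hnrnph2 0.46 in D and 0.28 in E, whereas Srsf1 had 0.29 in D and 0.49 in E, with adjusted p of 0.158 to 1 by the authors' deposited table. Prpf6, which bridges the tri-snRNP, had 0.36 in D and 0.26 in E (adjusted p 0.132 and 0.45), and the nucleolar helicase Ddx56 had 0.30 and 0.26 (adjusted p of 1 in each), per the authors' deposited table. All 6 were detected in every cell of D and of E. No gene of the marker lists was listed in D. In E the progenitor marker Flt3 was, with 100% of the cluster's cells against 63% of the others and an adjusted p of 0.000556 by the authors' deposited table, and its part in the values of E was not tested.

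The genes that passed in D or E besides Sf3a1 were helicases. Dhx58, the RNA sensor LGP2, was found in 86.3% of the cells of D and 25.4% of the others, at a log fold of 0.27 with an adjusted p of 3.59e-06 by the authors' deposited table. Ddx41, a spliceosome helicase and nucleic acid sensor, was found in 100% of the cells of E and 39.1% of the others, at 0.27 with an adjusted p of 0.000265 by the authors' deposited table. Among the entries of the genes described here these 2 had the widest detection gaps, 60.9 percentage points each, at small folds. Ddx18 of ribosome assembly (0.30) completed D. In E the others, each with an adjusted p of 1, were Hnrnpf (0.37), Hnrnpll (0.31; 96.9% of E and 60.9% of the other cells), the export helicase Ddx39b (0.29) and Ddx24 (0.26), by the authors' deposited table.

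Outside the symbols, the 216 pathway genes gave 10 entries in A, 8 in B, 20 in C, 9 in D and 11 in E, and 8, 5, 8, 5 and 4 of these passed the adjusted p by the authors' deposited table. As shares of the 216 the entries are 4.63%, 3.70%, 9.26%, 4.17% and 5.09%, under the background given above in A and B and above it in C, D and E. Those that passed are 3.70%, 2.31%, 3.70%, 2.31% and 1.85%, under the background for the adjusted p in A and above it in the other 4. In C, Txnl4a and Usp39 of the U4/U6.U5 tri-snRNP led the snRNP list (0.68 and 0.45), with adjusted p of 1.24e-10 and 5.78e-10 by the authors' deposited table. In D, the SMN complex genes Gemin2 (98% of D and 46.8% of the other cells) and Gemin8 (90.2% and 23.7%) passed beside Sart3 (92.2% and 26%), by the authors' deposited table. In A and B, Cstf1 had 0.55 and 1.03, and Tfip11 0.35 and 0.51, and both passed in each cluster, per the authors' deposited table. Cstf1 and Tfip11 are also the pathway genes that passed toward MMP-low.

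The authors compared the clusters over a whole pathway named mRNA Processing, and it had the largest statistic of the 13 pathways deposited. Its Kruskal-Wallis chi-squared was 138 with 4 degrees of freedom by the authors' deposited table, against 51.3 to 134 for the 12 others. Purine Metabolism, with 134, came next. Of the 10 pairs of clusters, 9 carry a star in the authors' deposited table, and 4 to 9 pairs do in each of the other pathways. The rule behind the star is not stated. The size of z was 10.7 for E and B, 8.08 for A and B, 7.92 for E and C, and 7.11 for E and D by the authors' deposited table. It was 4.92 for B and D, 4.74 for C and B, 4.58 for A and C, 3.85 for A and D, and 3.54 for E and A by the authors' deposited table. Clusters C and D were the pair without a star, with 0.50 by the authors' deposited table. Taken along a single scale, these statistics put E at one end, then A, then C with D, and B at the other end. Which end is higher is not stated in the table, and the number of cells and the genes behind the pathway are not given either. The comparison is between clusters and not between the MMP groups.

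**Figure D4:**
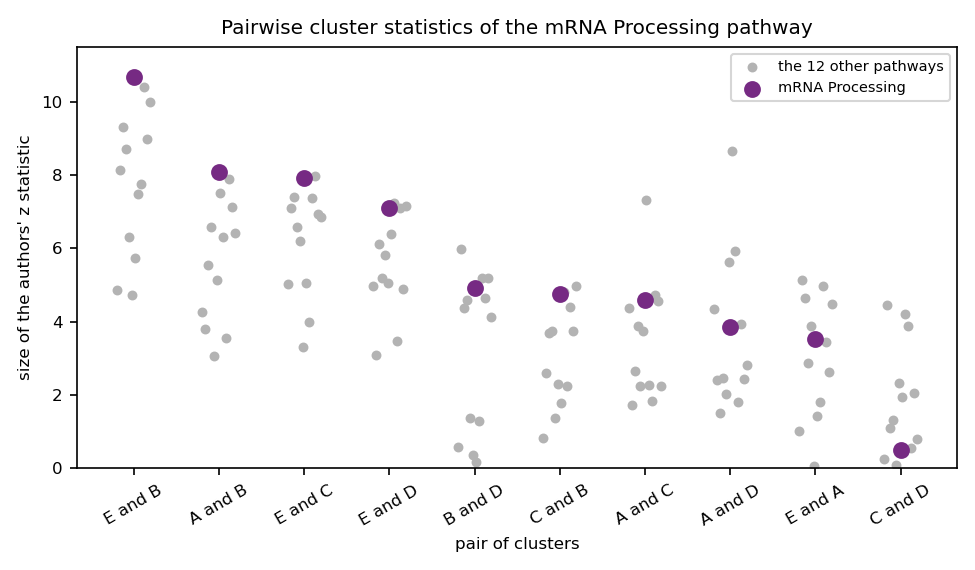
Size of the authors' z statistic (vertical axis) for the 10 pairs of clusters, for mRNA Processing (purple) and 12 other pathways (grey). Values for mRNA Processing run from 10.7 for E and B to 0.50 for C and D.

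The authors' enrichment was read for clusters C, D and E, and not for A, B or the MMP-low list. In C and E most splicing terms had larger adjusted p-values than in the MMP-high list. That list holds 919 genes, against 830 in C, 524 in D and 454 in E, and the part of list length was not tested. In D the term RNA binding held 54 of 1194 genes, 7 of them described here (adjusted p 0.0199 by the authors' deposited table). The authors' deposited table gives mRNA splicing via spliceosome an adjusted p of 0.291 in C (18 of 233, with 5 of the genes described here) and 0.174 in E (12 of 233, with 7). In E the U2-type spliceosomal complex had an adjusted p of 0.0106 by the authors' deposited table, with Sf3a1, Prpf6, Ddx39b and Ddx41 among its 8 genes. All 11 genes listed in E are among the 55 genes of mRNA binding (adjusted p 6.11e-05) by the authors' deposited table. The term for unwinding RNA secondary structure in E held 5 genes, all described here (Ddx6, Ddx24, Ddx39b, Ddx41 and Ddx56), with an adjusted p of 0.154 by the authors' deposited table. The genes described here were chosen by symbols of splicing and helicase families. Their place in terms of splicing, mRNA binding and unwinding thus follows in part from that choice.

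The remaining 22 genes were in the highly variable list alone, which gives no group values. They were 16 helicases (Ddx11, Ddx19b, Ddx20, Ddx28, Ddx39, Ddx49, Ddx54, Ddx55, Dhx8, Dhx32, Dhx33, Dhx34, Dhx35, Dhx37, Dhx40 and Dhx57) and Hnrnph3, Hnrnpk, Hnrnpm, Prpf40b, Snrpn and Srsf6. Of the RefSeq genes of each class, the highly variable list held 11 of 16 Dhx (68.8%), 5 of 13 Prpf (38.5%), 12 of 34 Ddx (35.3%), 6 of 21 Hnrnp (28.6%), 1 of 9 Sf3a and Sf3b (11.1%), 1 of 11 Srsf (9.09%) and 1 of 12 Snrp genes (8.33%), beside the 34.7% of the whole list. Ddx39 has no match in RefSeq and is outside these counts. Many of these genes have close paralogs or processed pseudogene copies, such as those of Hnrnpa1 and the Sm genes, and how reads shared between copies were counted is not given. With 1 sample per group, more RNA per cell and a different mix of cells cannot be told apart.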

How the data were processed

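Every library was made from 1 cell, captured and copied on the Fluidigm C1 with SMART-Seq v4 chemistry and tagged with Nextera XT, per the labels' protocols. STAR 2.5.2b, bcl2fastq 2.17.1.14 and the mm10 build are named in the submitters' processing notes. The annotation, normalization and any filling in of values are, in each case, not given in the sources used here. For each library, counts of reads and of genes found were made by the authors, per the file headers. Detection was deposited by the authors as a fraction of cells and was turned into percent. Log fold changes are treated as a score, since the authors state no base, and each p-value is the authors' deposited one. Adjusted values are 16203 times the p-value, and 16203 is read as how many genes were tested. MAST, a single-cell model, is named for the MMP comparison per the file headers. The authors' p-values measure a spread between cells, and may not hold between animals. Enrichment overlaps, adjusted p-values and z scores are the authors' deposited values.

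Members were found by symbol with Python 3.11.15 and pandas 2.3.3. The symbol rule was checked on a few symbols that had to pass and a few that had to fail. Genes were called at an adjusted p under 0.05 over all tested genes, and no new test was made, since the gene tables analysed here hold no value per cell. The members and lists were chosen with earlier results of these data known. The gene rule names, per class and table, up to 4 members by fold, every member in 2 or more tables and those nearest the threshold; of each pathway list up to 4 genes by fold, and of marker lists up to 2. Further pathway genes, the 5 markers at 0% and the promoters shown were chosen after their values were seen. Of the 72 symbols, 71 matched RefSeq, and 1 (Ddx39) did not. Promoters are from RefSeq, GRCm38.p6. Alternatives were a threshold on adjusted p or on fold, a detection minimum, other gene sets, means in place of medians, and a split of libraries at number 85. Some results are not reported here.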

Additional observations from a re-analysis of the deposited data

How the results depend on the processing

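Every alternative left more genes toward MMP-high than toward MMP-low, except a log fold of at least 0.5, which left 0 toward MMP-low and 0 toward MMP-high. With an adjusted p under 0.05, 0 genes were left toward MMP-low and 15 toward MMP-high, and with the pathway lists added there were 10 and 60. Without the Ddx and Dhx genes 2 and 19 were listed, and with detection in at least 25% of both groups 3 and 24. The detection difference, MMP-low minus MMP-high, was -10.16 points as a mean in place of the median and -1.9 under the adjusted p for the genes listed toward MMP-high, and -0.03 as a mean for the 3 listed toward MMP-low. In clusters A to E the adjusted p left 1, 0, 2, 2 and 1 genes, and a log fold of at least 0.5 left 1, 1, 1, 2 and 0. The median number of genes per MMP-high library was 1905 above library number 85. No paired analysis was possible because no test was run, and the numbers in the titles are not stated to pair libraries. Libraries could not be left out of the authors' folds, since no value per cell was analysed here. The number of cells behind each percentage is not stated and was not worked out from the percentages, so no interval is given.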
